A study of Mus musculus with 6 samples.

Results

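The transcripts described here are those of 10 basic leucine zipper transcription factors: Jun, Junb and Jund of the JUN family, Fos, Fosb, Fosl1 and Fosl2 of the FOS family, Atf3, and the small MAF factors Maff and Mafk. They were chosen by gene symbol, and all 10 were found among the 25075 symbols of the count table. All 10 also passed the filter on low counts, which left 15261 genes. The series measured RNA of group 3 innate lymphoid cells (ILC3s), lymphocytes of the gut wall that make IL-22 and IL-17, from mouse small intestine. Each of the 6 libraries was made from 2000 sorted cells, with 2 ng of RNA put into the Smart-seq2 protocol, which copies whole transcripts from scant material. The labels gave 3 Batf-deficient libraries (genotype Batf fl/fl PLZF-Cre+) and 3 control libraries (Batf fl/fl PLZF-Cre-), all on a b6 background and all sorted as Lin-CD90.2+KLRG1- cells, that is, without lineage markers or KLRG1 and with CD90. The controls thus carried the same floxed Batf alleles and lacked only the Cre, which the PLZF promoter drives in innate lymphoid precursors and other cells with a history of PLZF. Neither the labels nor the design text used here give age, sex, litter or any pooling of animals.

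JUN and FOS proteins bind DNA as pairs, joined by their leucine zippers, and such a pair is called AP-1. JUN proteins can pair with each other, with FOS proteins, with ATF3 or with BATF, whereas FOS proteins do not form stable pairs among themselves and need a JUN partner. BATF, the product of the gene targeted here, lacks a transactivation domain and competes with FOS for JUN proteins. The small MAFs also lack one, and act in pairs with NRF2 or with BACH1 and BACH2 at antioxidant response elements. Jun, Junb, Fos, Fosb, Atf3 and Maff are immediate early genes, which respond within minutes to mitogens, cytokines and stress, the stress of tissue dissociation included.

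The promoters of Jun, Junb, Fos and Atf3 are shown because these 4 members had the largest rise with TMM scaling in the comparison below. They also ranked highest with counts scaled on lymphoid genes or on the sum of the members, as described later. Fos and Atf3 were then lower in the labelled Batf-deficient libraries, and Junb was not called higher with lymphoid genes. Each window holds the 250 bases before the transcription start in RefSeq, on GRCm38.p6, the assembly also known as mm10. Capitals mark matches to TGACG, the core of the cyclic AMP response element, to TGACATCA, an AP-1-like variant of that element, and to CCAAT, on either strand.
Jun promoter, chr4:95052223-95052472, minus strand: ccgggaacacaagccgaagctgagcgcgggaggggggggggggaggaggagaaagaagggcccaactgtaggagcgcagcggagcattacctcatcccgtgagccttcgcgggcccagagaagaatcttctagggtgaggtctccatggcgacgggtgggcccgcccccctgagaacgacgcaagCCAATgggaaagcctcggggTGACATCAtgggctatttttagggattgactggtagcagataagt
Junb promoter, chr8:84978749-84978998, minus strand: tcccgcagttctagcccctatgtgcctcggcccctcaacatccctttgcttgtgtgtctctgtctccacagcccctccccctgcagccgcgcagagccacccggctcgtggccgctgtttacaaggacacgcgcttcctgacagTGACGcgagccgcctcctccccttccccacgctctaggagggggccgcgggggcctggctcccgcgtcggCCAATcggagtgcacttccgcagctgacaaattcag
Fos promoter, chr12:85473640-85473889, plus strand: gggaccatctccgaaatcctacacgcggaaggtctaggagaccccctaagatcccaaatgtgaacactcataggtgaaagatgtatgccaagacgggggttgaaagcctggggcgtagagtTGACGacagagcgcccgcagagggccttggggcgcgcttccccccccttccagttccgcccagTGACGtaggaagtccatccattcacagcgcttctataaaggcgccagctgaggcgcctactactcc
Atf3 promoter, chr1:191183334-191183583, minus strand: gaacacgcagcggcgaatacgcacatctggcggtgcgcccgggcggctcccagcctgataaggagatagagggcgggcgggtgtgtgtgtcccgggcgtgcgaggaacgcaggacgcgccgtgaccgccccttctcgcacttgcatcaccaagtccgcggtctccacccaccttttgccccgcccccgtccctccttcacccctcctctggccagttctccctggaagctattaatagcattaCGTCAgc
Positions are counted back from the start, with -1 for the base just before it. The Fos window held TGACG with its first base at -129 and at -66, the Junb window at -106 and the Atf3 window at -7, where it lies on the opposite strand. The Jun window held no TGACG but TGACATCA at -45. CCAAT matched at -65 in Jun and at -36 in Junb. The RefSeq table held 9 of the 10 members with 11 start sites, and Fosl1 was not among them. The RefSeq start of Jund lies upstream of its GENCODE start, and that of Atf3 lies inside the longer GENCODE gene. The core TGACG was found in at least 1 window of 6 of these 9 members, and in 17.8% of all 32851 promoter windows of that length. The full element TGACGTCA, which contains the core on both strands, occurred in a window of 1 member, Maff, and in 1.55% of all windows. TGACATCA occurred in windows of 2 members, Jun and Maff, and in 2.93% of all windows. CCAAT occurred in windows of 2 members and in 33.8% of all windows. The AP-1 element TGANTCA matched in none of the 9 members and in 6.75% of all windows. The heat shock element GAANNTTC matched in 2 members, Jun at -128 and Fosl2 at -244, and in 6.69% of all windows, and its other arrangement TTCNNGAA in none of the 9 and in 7.17% of all windows. TATAAA matched in 1 member, Fos, at -33, and in 12.4% of all windows. These matches are letters in a window and were not tested as binding sites.

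Total counts were 8420533, 8228513 and 13615895 in the labelled Batf-deficient libraries and 9080012, 15399111 and 17334207 in the labelled control libraries. The targeted gene went against the labels on the scale used here: Batf had 38.3, 41.3 and 41.3 CPM (counts per 1000000 counts of the TMM-scaled library) in the labelled Batf-deficient libraries and 15.2, 15.3 and 18.95 CPM in the labelled control libraries. With counts scaled on lymphoid genes, as described later, Batf was instead lower in the labelled Batf-deficient libraries. Its log2 fold change was then -1.10 (edgeR adjusted p = 4.49e-05), where 86.4% of all genes were called lower. The direction of Batf thus turned with the scaling, and the match of labels to genotype was not tested. The groups are therefore called by their labels throughout, and every direction below is between libraries as labelled. Reads over the exons that Cre removes cannot be separated in a table with 1 row per gene. The groups also differed in transcripts of other cells. All 10 acinar markers were lower in the labelled Batf-deficient libraries, where they summed to 0.000143% to 0.000231% of counts with Try4 at 0, against 8.71% to 8.98% in the labelled control libraries. Of 11 epithelial markers 10 were lower (0.0263% to 0.0312% of counts against 1.22% to 1.29%), of 7 B and plasma cell markers 6 (0.0478% to 0.0528% against 0.962% to 0.982%) and of 8 macrophage and dendritic cell markers 8 (0.00320% to 0.00391% against 0.0523% to 0.0569%). Of 8 stromal markers 7 were lower (0.00514% to 0.00599% against 0.105% to 0.113%), and of 6 endothelial markers 5 (0.00756% to 0.00950% against 0.0232% to 0.0251%). The endothelial marker Pecam1 was higher (log2 fold change 0.54, edgeR adjusted p = 0.0169). None of these 5 lists had a marker at 0 in all 3 labelled Batf-deficient libraries. All 10 ILC3 markers were higher (0.933% to 0.995% against 0.152% to 0.174%), as were 5 of 8 alpha-beta T cell markers (0.166% to 0.176% against 0.0319% to 0.0346%). The T cell marker Cd8a was lower (log2 fold change -4.15, edgeR adjusted p = 8.76e-05). These marker calls were made with TMM scaling, where 34.1% of all genes tested were lower and 30.2% higher. The part of these other transcripts in the results on JUN, FOS and MAF genes was not tested, and in bulk RNA fewer cells of a type and less RNA per cell cannot be told apart. Xist was at 173 to 264 CPM across the labelled Batf-deficient libraries and at 0.401 to 1.32 CPM in the labelled control libraries, so a difference in sex between the animals and the label cannot be told apart.

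With TMM scaling, 6 of the 10 genes were higher in the labelled Batf-deficient libraries (Jun, Junb, Fos, Fosb, Fosl2 and Atf3), 2 were lower (Fosl1 and Maff), and Jund and Mafk did not pass (edgeR quasi-likelihood test, threshold 0.05 on the Benjamini-Hochberg adjusted p). Over all genes tested, 64.4% passed, 30.2% as higher and 34.1% as lower, so a call by itself was common in these libraries. The values of the 3 libraries of one group lay clear of the other group's for 9 of the 10 members and for 71.2% of all genes. Scaling decided the direction of several of these calls, and the values under 2 other scalings are given after the families. Together the 10 genes took 1.29% ± 0.0391 of all counts in the labelled Batf-deficient libraries and 0.450% ± 0.0140 in the labelled control libraries (SD, n = 3 each).

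In the JUN family, Jun and Junb were higher and Jund did not pass. Jun encodes c-Jun, the strongest transactivator of the family and the main substrate of the JNK kinases (chromosome 4, 95049034 to 95052222, minus strand, GENCODE M21 on mm10). It had 2953, 2874 and 2967 CPM across the labelled Batf-deficient libraries and 246, 262 and 305 CPM in the labelled control libraries. The groups lay far apart, and Jun had the largest rise of the 10 genes, at 10.8-fold (log2 fold change 3.43, SE 0.10, edgeR adjusted p = 7.63e-11). Junb, a JUN protein of lower transactivating power and a partner of BATF in T helper cells (chromosome 8, 84974484 to 84978718, minus strand), had 7863, 7701 and 7411 CPM across the labelled Batf-deficient libraries and 1574, 1514 and 1560 CPM in the labelled control libraries. It had the highest CPM of the 10 genes in each library, and was 4.94-fold higher in the labelled Batf-deficient group (log2 fold change 2.31, SE 0.08, edgeR adjusted p = 2.12e-10). Jund, which most tissues express constitutively (chromosome 8, 70698949 to 70700616, plus strand), had 454, 429 and 547 CPM across the labelled Batf-deficient libraries and 427, 385 and 434 CPM in the labelled control libraries. These ranges overlapped, and the log2 fold change was 0.20 (SE 0.11, edgeR adjusted p = 0.124).

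In the FOS family, Fos, Fosb and Fosl2 were higher and Fosl1 was lower. Fos encodes c-Fos, the founding early response factor (chromosome 12, 85473890 to 85477273, plus strand). It had 2065, 2014 and 1979 CPM across the labelled Batf-deficient libraries and 627, 592 and 705 CPM in the labelled control libraries. The groups did not overlap, and Fos was 3.15-fold higher (log2 fold change 1.65, SE 0.09, edgeR adjusted p = 1.41e-08). Fosb, a second early FOS gene (chromosome 7, 19302696 to 19310051, minus strand), had 208, 199 and 212 CPM across the labelled Batf-deficient libraries and 146, 138 and 144 CPM in the labelled control libraries. Its rise was small, at 1.44-fold (log2 fold change 0.53, SE 0.09, edgeR adjusted p = 0.000321), and scaled on library totals it lost its call (log2 fold change 0.15, edgeR adjusted p = 0.236). Fosl2 encodes FRA2, which together with BATF has been studied in Th17 cells (chromosome 5, 32135801 to 32157842, plus strand). It had 486, 501 and 495 CPM across the labelled Batf-deficient libraries and 305, 325 and 287 CPM in the labelled control libraries, a 1.62-fold rise (log2 fold change 0.69, SE 0.09, edgeR adjusted p = 2.64e-05).

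Fosl1, which encodes FRA1, a factor known from epithelial and mesenchymal cells and from carcinomas (chromosome 19, 5447547 to 5455946, plus strand), went the other way. It had 2.36, 1.71 and 2.41 CPM across the labelled Batf-deficient libraries, from 17, 12 and 30 counts, and 134, 118 and 139 CPM in the labelled control libraries, from 1421, 2069 and 2677 counts. No library of either group came near the other, and Fosl1 was 59.1-fold lower (log2 fold change -5.89, SE 0.17, edgeR adjusted p = 5.62e-11). Both the epithelial and stromal marker lists were lower in the same libraries, by medians of -4.87 and -3.96 on the log2 scale. Their part in the Fosl1 difference was not tested.

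Atf3 encodes a stress-induced factor that pairs with JUN proteins (chromosome 1, 191170296 to 191218039, minus strand). It had 839, 867 and 892 CPM across the labelled Batf-deficient libraries and 327, 334 and 393 CPM in the labelled control libraries, and was 2.47-fold higher (log2 fold change 1.30, SE 0.10, edgeR adjusted p = 2.16e-07). Both small MAF genes were at lower CPM in each labelled Batf-deficient library than in any labelled control library, but only Maff passed the test. Maff, the inducible small MAF (chromosome 15, 79346621 to 79359076, plus strand), had 23.6, 21.6 and 26.4 CPM across the labelled Batf-deficient libraries and 60.4, 61.3 and 42.6 CPM in the labelled control libraries. It was 2.28-fold lower (log2 fold change -1.19, SE 0.17, edgeR adjusted p = 6.49e-05), with control replicate 3 closest to the other group. Mafk, a more constitutive small MAF (chromosome 5, 139791513 to 139802653, plus strand), had 81.1, 79.7 and 80.2 CPM across the labelled Batf-deficient libraries and 88.4, 93.3 and 96.2 CPM in the labelled control libraries. Its log2 fold change was -0.21 (SE 0.10, edgeR adjusted p = 0.0951).

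Whether reads were counted by strand is not given in the sources used here, and 6 of the 10 genes overlap a gene of the opposite strand in GENCODE M21. For Mafk this is Tmem184a, with 6, 6 and 14 counts in the labelled Batf-deficient libraries and 523, 602 and 741 counts in the labelled control libraries. For Junb it is the peroxiredoxin gene Prdx2, with 1355, 1336 and 2464 counts against 2162, 3731 and 4401. For Fosl1 it is Ccdc85b, with 96, 114 and 199 counts against 151, 254 and 326. Fosl1 itself had only 17, 12 and 30 counts in the labelled Batf-deficient libraries. How many reads passed between such neighbours cannot be told from the table, so the Mafk values and these low Fosl1 counts are uncertain.

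**Figure D1:**
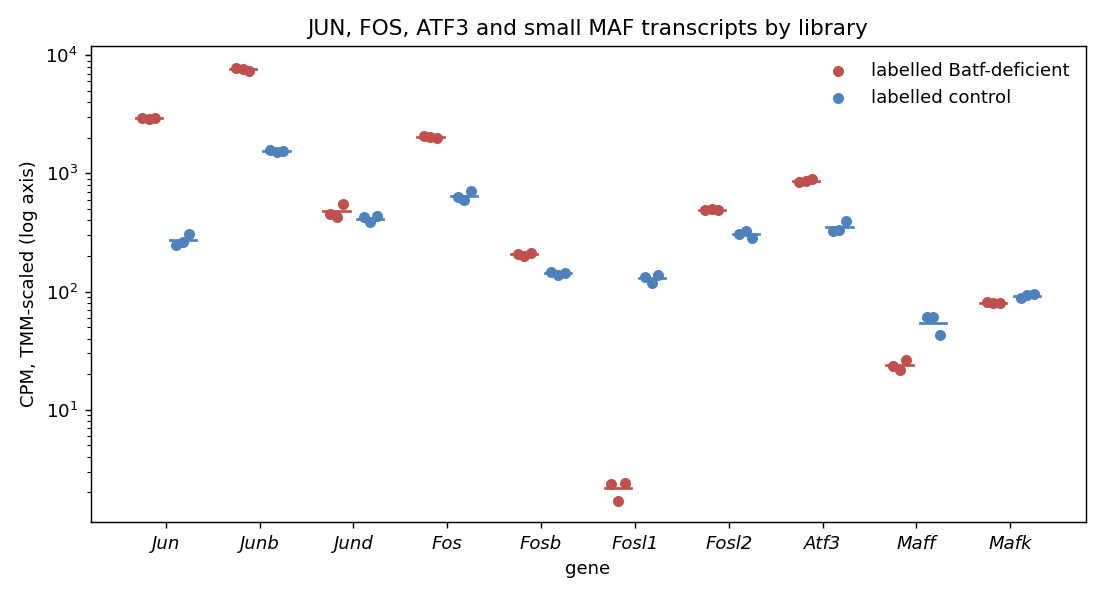
CPM after TMM scaling on a log axis for each of the 10 genes, with 3 points per group (red, labelled Batf-deficient; blue, labelled control) and the group mean as a bar. Jun and Junb lie far above the controls in the labelled Batf-deficient libraries, Jund overlaps, and Fosl1 falls to 2.16 CPM, against a mean of 130 CPM in the labelled control libraries.

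Because acinar and epithelial transcripts took so different a share of the libraries, the counts were also scaled on 12 genes that ILCs and T cells have in common, such as Il7r, Lck and Thy1. These 12 genes were chosen after the data were seen. With TMM scaling their own log2 fold changes ran from 0.69 to 3.63 (median 2.39), a range that holds the 3.43 of Jun, and Il7r made up 27.6% to 38.0% of their counts. This shifted the median of all genes by -2.39 on the log2 scale. With it 2.06% of all genes were called higher and 86.4% lower. Of the 10 genes, only Jun was then higher (log2 fold change 1.05, SE 0.10, edgeR adjusted p = 1.08e-07), a 2.07-fold rise. Junb was at -0.086 (SE 0.09, edgeR adjusted p = 0.352) and did not pass. The other 8 were lower. The values turned round for Fos (-0.73), Atf3 (-1.08), Fosl2 (-1.70), Fosb (-1.86) and Jund (-2.18), and those of Mafk (-2.59), Maff (-3.58) and Fosl1 (-8.26) moved further down. Relative to the sum of these 12 genes, Jun was thus the sole member called higher in the labelled Batf-deficient libraries.

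Shares within the pool of the 10 transcripts need no scaling of the libraries, and they show a change of make-up. To compare genes of different length, counts were divided by the merged exon length of each gene, and each gene was given as its percentage of the summed reads per kilobase. Junb made up the largest share in all 6 libraries, at 57.0%, 56.9% and 55.0% in the labelled Batf-deficient libraries and 42.7%, 42.8% and 40.4% in the labelled control libraries. Jun took 15.4%, 15.3% and 15.9% of the pool in the labelled Batf-deficient libraries and 4.82%, 5.33% and 5.70% in the labelled control libraries. Jund had the opposite pattern, with 4.54%, 4.38% and 5.61% in the labelled Batf-deficient libraries and 15.97%, 15.01% and 15.50% in the labelled control libraries. Jun and Jund thus changed places within the JUN family, from which Jun took 20.3% ± 0.427 and 8.43% ± 0.833, and Jund 6.31% ± 0.879 and 24.7% ± 0.786, in the labelled Batf-deficient and labelled control libraries in that order (SD, n = 3 each).

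The share of Fos was closest between the groups as a ratio, at 14.5% ± 0.136 in the labelled Batf-deficient libraries and 16.9% ± 0.799 in the labelled control libraries (SD, n = 3 each). Among FOS genes alone, Fos held 91.0% ± 0.254 in the labelled Batf-deficient libraries and 69.6% ± 1.38 in the labelled control libraries, where Fosl1 held 16.4% ± 0.560 (SD, n = 3 each). In the labelled Batf-deficient libraries Fosl1 held 0.113% ± 0.0206 of the FOS reads per kilobase. Fosl2 had 0.864% ± 0.0225 and 1.97% ± 0.206 of the whole pool in the labelled Batf-deficient and labelled control libraries, and Fosb 0.559% ± 0.0197 and 1.43% ± 0.0429 in the same order. Both genes are long, and without division by length Fosl2 held 3.35% and 7.75%, and Fosb 1.40% and 3.62%, of the pool's counts. Atf3 took 6.81% ± 0.292 in the labelled Batf-deficient libraries and 10.1% ± 0.703 in the labelled control libraries. Maff and Mafk were the scarcest in the labelled Batf-deficient libraries beside Fosl1, with 0.156% ± 0.0165 and 0.348% ± 0.00243, against 1.32% ± 0.300 and 1.48% ± 0.0699 in the labelled control libraries. By family, JUN transcripts made up 76.7% ± 0.210 of the pool in the labelled Batf-deficient libraries and 62.7% ± 0.994 in the labelled control libraries. FOS transcripts made up 16.0% ± 0.105 and 24.3% ± 0.674, and small MAF transcripts 0.504% ± 0.0187 and 2.80% ± 0.324, in the same order.

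**Figure D2:**
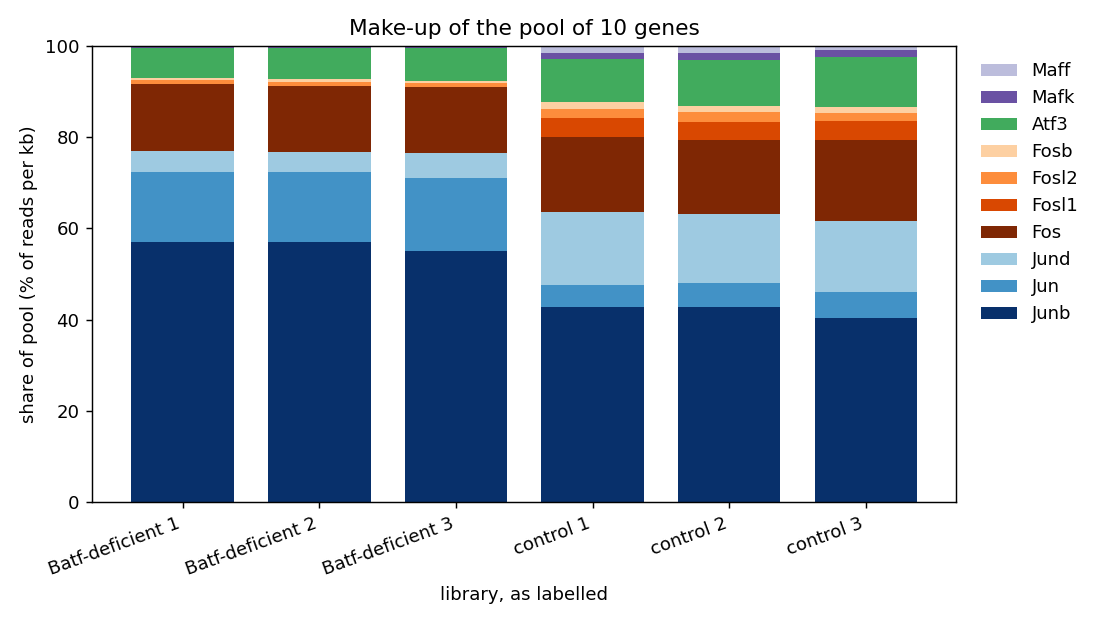
Stacked bars of the percentage of summed reads per kilobase that each of the 10 genes takes, 1 bar per library, with the labelled Batf-deficient libraries on the left. The blue JUN part grows to 76.7% on average, against 62.7% in the labelled control libraries, and Jun takes a larger and Jund a smaller part of it.

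For each of the 10 shares the 3 libraries of one group lay clear of the other group's, as did the CPM of 71.2% of all genes. An exact two-sided permutation test over the 6 libraries gave p = 0.1 for each share. This is the smallest that 3 against 3 can give, and 10 shares were compared. Counts were also scaled on the summed raw counts of the 10 genes, without division by length. This shifted the median of all genes by -1.90 on the log2 scale, and 3.5% of genes were called higher and 79.7% lower. A pool is closed: where Jun and Junb take more of it the other members must together take less, so these values show unequal change among the 10 genes and not a lower level of any one. Relative to the pool, Jun was higher (log2 fold change 1.54, SE 0.09, edgeR adjusted p = 4.45e-09) and Junb slightly so (0.40, SE 0.07, edgeR adjusted p = 0.00022). The other 8 were lower relative to the pool, from -0.24 for Fos (edgeR adjusted p = 0.0132) to -7.78 for Fosl1 (edgeR adjusted p = 4.44e-13).

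**Figure D3:**
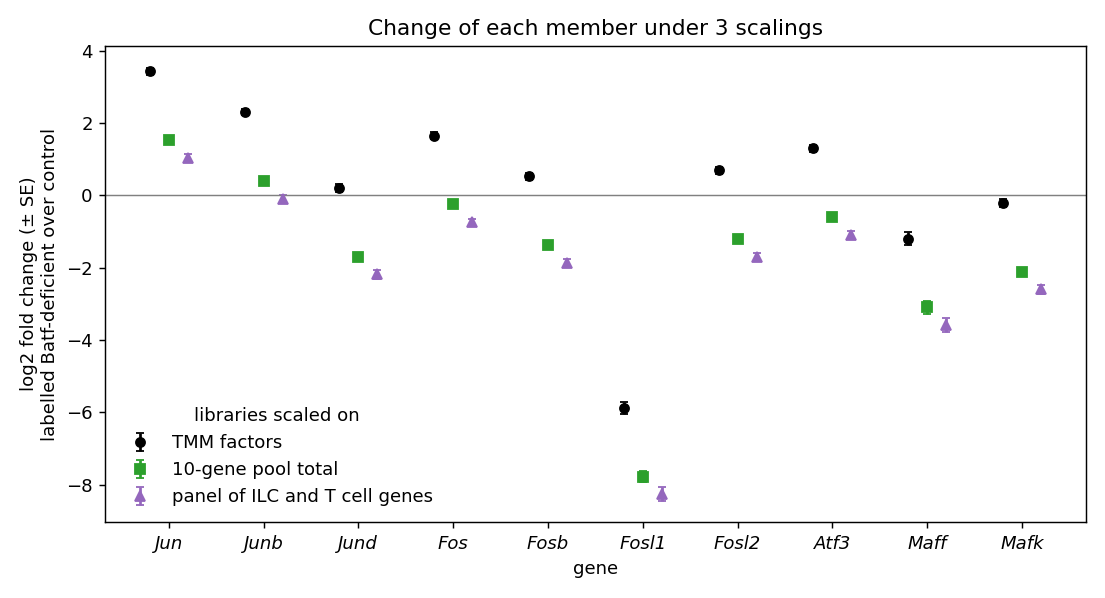
Log2 fold change with its SE, labelled Batf-deficient over labelled control, for each gene with TMM factors (circles), the pool total (squares) and the 12 lymphoid panel genes (triangles). Jun lies above 0 under all 3, at 3.43, 1.54 and 1.05, while Fos, Fosb, Fosl2, Atf3 and Jund lie above 0 with TMM factors only.

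The order of the members by reads per kilobase of merged exons also differed. In the labelled Batf-deficient libraries it ran Junb, Jun, Fos, Atf3, Jund, Fosl2, Fosb, Mafk, Maff and Fosl1, with no overlap between neighbours over the 3 libraries. In the labelled control libraries it ran Junb, Fos, Jund, Atf3, Jun, Fosl1, Fosl2, Mafk, Fosb and Maff, where Mafk, Fosb and Maff overlapped each other. Jun stood in place 2 in the labelled Batf-deficient libraries and in place 5 in the labelled control libraries. Fosl1 stood in place 10 and in place 6 in the same order. Close neighbours changed places when the longest transcript of each gene was used as its length. Fos, at 13.7% ± 0.0980, then stood above Jun, at 13.1% ± 0.284, in all 3 labelled Batf-deficient libraries, and Jun was in place 3 there. In the labelled control libraries Fosb, at 2.01% ± 0.0539, then stood above Mafk, at 1.59% ± 0.0734, and Jun was again in place 5.

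Ratios between pairs of members, also per kilobase, give the same shift as numbers. Jun was at 3.25 ± 0.358 times Jund in the labelled Batf-deficient libraries and at 0.342 ± 0.0351 times Jund in the labelled control libraries (SD, n = 3 each). Fos was at 0.934 ± 0.0259 times Jun in the labelled Batf-deficient libraries, and at 3.22 ± 0.204 times Jun in the labelled control libraries. With longest transcripts the ratio was 1.04 ± 0.0289 and 3.59 ± 0.227 in the same order, so which of Fos and Jun was more abundant in the labelled Batf-deficient libraries turned with the length used. Atf3 was at 0.437 ± 0.0144 and 1.92 ± 0.0396 times Jun, and Junb at 11.8 ± 1.72 and 2.71 ± 0.124 times Jund, in the same order. Fosl1 was at 0.0208 ± 0.00401 times its relative Fosl2 in the labelled Batf-deficient libraries and at 2.04 ± 0.287 times in the labelled control libraries. Maff was at 0.447 ± 0.0447 and 0.894 ± 0.198 times Mafk. For the 9 ratios compared the groups did not overlap, and the exact two-sided permutation test gave p = 0.1 for each. The 9 pairs were picked from all possible pairs, and several share a gene. By CPM the groups also did not overlap for 71.2% of all genes.

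The bZIP partners of these factors moved in both directions. Of 13 listed, 10 were tested, and 3 were higher and 2 lower (median log2 fold change -0.10, against 0.02 over all genes tested). Over all genes tested, 30.2% were higher and 34.1% lower, so neither count stood out. Batf was higher (log2 fold change 1.29, edgeR adjusted p = 1.70e-05), as were Atf2 and Atf7, which pair with JUN at cyclic AMP response elements (0.96 and 0.47, edgeR adjusted p = 0.000218 and 0.0166). With panel scaling these 3 turned to -1.10, -1.43 and -1.92. Batf2 was lower, with 0.540 ± 0.223 CPM across the labelled Batf-deficient libraries and 14.4 ± 0.655 CPM in the labelled control libraries (SD, n = 3 each; log2 fold change -4.67, edgeR adjusted p = 3.83e-07). Bach2, a repressor that pairs with small MAFs in lymphocytes, was lower at 5.71 ± 1.27 and 18.7 ± 2.99 CPM in the same order (log2 fold change -1.70, edgeR adjusted p = 9.05e-05). Bach1 and Nfe2l2, which encodes NRF2, did not pass (-0.42 and 0.04, edgeR adjusted p = 0.0803 and 0.747). With library totals 5 partners were lower in place of 2. Mafg, the remaining small MAF gene, was at 68.3 ± 5.63 CPM across the labelled Batf-deficient libraries and 81.3 ± 12.5 CPM in the labelled control libraries and did not pass (log2 fold change -0.25, edgeR adjusted p = 0.122).

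Genes that act upstream of JUN and FOS also went both ways. The 24 genes listed encode MAP kinases with the kinases above and below them, serum response factor with its cofactors, and the cyclic AMP response factors Creb1 and Crem. All 24 were tested, with 11 higher and 7 lower (median 0.32), against 30.2% higher and 34.1% lower over all genes tested. Crem, a cyclic AMP response modulator, had 1332 ± 174 CPM across the labelled Batf-deficient libraries and 331 ± 22.2 CPM in the labelled control libraries (SD, n = 3 each; log2 fold change 2.01, edgeR adjusted p = 1.53e-08). The kinases Mapkapk2 and Mapk14 of the p38 branch were higher by smaller amounts (0.69 and 0.72, edgeR adjusted p = 0.000204 and 0.00111). Mapk3, which encodes the kinase ERK1, was lower, at 19.8 ± 1.60 CPM across the labelled Batf-deficient libraries and 141 ± 3.60 CPM in the labelled control libraries (log2 fold change -2.83, edgeR adjusted p = 1.17e-09). Map2k3, also of the p38 branch, and Map2k2 were lower as well (-1.28 and -1.07, edgeR adjusted p = 2.66e-07 and 1.96e-06). The p38 branch thus went both ways. With panel scaling 0 of the 24 were higher and 24 lower, Crem at -0.39 among them, where 86.4% of all genes were lower. With library totals 4 were higher and 8 lower.

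Of 22 genes known as AP-1 targets 19 were tested, with 7 higher and 10 lower (median -0.51). The shares over all genes tested were 30.2% higher and 34.1% lower. The cytokine gene Tnf had 138 ± 6.36 CPM across the labelled Batf-deficient libraries and 9.41 ± 0.464 CPM in the labelled control libraries (SD, n = 3 each; log2 fold change 3.88, edgeR adjusted p = 1.17e-10). Ptgs2, the inducible cyclooxygenase, and the chemokine gene Cxcl2 were also higher (2.73 and 2.03, edgeR adjusted p = 2.71e-09 and 1.07e-08). The urokinase receptor gene Plaur had 10.1 ± 1.89 CPM across the labelled Batf-deficient libraries and 171 ± 11.7 CPM in the labelled control libraries (log2 fold change -4.05, edgeR adjusted p = 4.32e-10). The monocyte chemokine Ccl2 and the growth factor Areg were lower beside it (-4.89 and -1.52, edgeR adjusted p = 5.71e-09 and 4.51e-08). With panel scaling 3 were higher and 14 lower, against 2.06% and 86.4% of all genes. Tnf and Ptgs2 remained positive at 1.49 and 0.34, and Cxcl2 turned to -0.35. The macrophage, stromal and epithelial markers were lower in the same libraries as Plaur and Ccl2, and their part was not tested.

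Targets of NRF2 and small MAF pairs were mostly lower. Of 15 tested 9 were lower and 3 higher (median -1.12), against 34.1% lower and 30.2% higher over all genes tested. Prdx1, a peroxiredoxin, had 226 ± 27.9 CPM across the labelled Batf-deficient libraries and 797 ± 23.9 CPM in the labelled control libraries (SD, n = 3 each; log2 fold change -1.82, edgeR adjusted p = 2.27e-08). Gsr, glutathione reductase, and Nqo1, a quinone reductase, were at -2.20 and -4.77 (edgeR adjusted p = 2.65e-08 and 1.13e-07). The higher ones were the ferritin genes Fth1 and Ftl1, at 1.17 and 0.28 (edgeR adjusted p = 6.02e-07 and 0.0102), and Hmox1, heme oxygenase, at 1.17 from low levels of 6.47 ± 1.54 and 2.86 ± 0.966 CPM in the labelled Batf-deficient and labelled control libraries (edgeR adjusted p = 0.0191). Ferritin and peroxiredoxin genes have processed pseudogenes that can share their reads, so these values are uncertain. The acinar, epithelial and macrophage marker lists were lower in the same libraries, by medians of -16.50, -4.87 and -4.02 on the log2 scale, and their part was not tested. With panel scaling all 15 were lower, as were 86.4% of all genes. With library totals, without Batf-deficient replicate 1 or without Batf-deficient replicate 3, 1 of the 15 was higher in place of 3.

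Other immediate early genes were mostly higher. Of 19 tested 12 were higher and 3 lower (median 0.92), against 30.2% higher and 34.1% lower over all genes tested. Nr4a1, an orphan nuclear receptor of antigen receptor signalling, had 5942 ± 285 CPM across the labelled Batf-deficient libraries and 672 ± 64.5 CPM in the labelled control libraries (SD, n = 3 each; log2 fold change 3.14, edgeR adjusted p = 1.05e-10). The MAP kinase phosphatase gene Dusp1 and the NF-kB regulator Nfkbiz were at 2.38 and 2.21 (edgeR adjusted p = 9.79e-10 and 2.13e-09). Ier3, Klf4 and Egr3 were lower, at -2.68, -0.90 and -4.10 (edgeR adjusted p = 2.41e-08, 1.30e-05 and 8.18e-05), and Egr1, often induced together with Fos, did not pass (-0.12, edgeR adjusted p = 0.261). With panel scaling 1 of the 19, Nr4a1 at 0.76, was higher and 15 were lower, where 86.4% of all genes were lower. With library totals 6 were lower in place of 3. The 12 inducible heat shock genes were all higher and, in sum, took 5.07% to 5.37% of counts in the labelled Batf-deficient libraries and 0.210% to 0.212% in the labelled control libraries (median log2 fold change 4.31). Hspa1a, an HSP70 gene whose reads can be split with its near-identical neighbour Hspa1b, was at 24736 ± 330 CPM across the labelled Batf-deficient libraries and at 73.3 ± 9.48 CPM in the labelled control libraries (SD, n = 3 each; log2 fold change 8.40, edgeR adjusted p = 5.93e-13). With panel scaling 11 of the 12 were still higher, against 2.06% of all genes, and Hspd1 did not pass (0.02, edgeR adjusted p = 0.851). Jun was also higher under both scalings, as were Nr4a1, Tnf and Ptgs2 among the genes named above. A like direction under both was thus not particular to the heat shock genes. Their part in the JUN and FOS results was not tested.

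**Figure D4:**
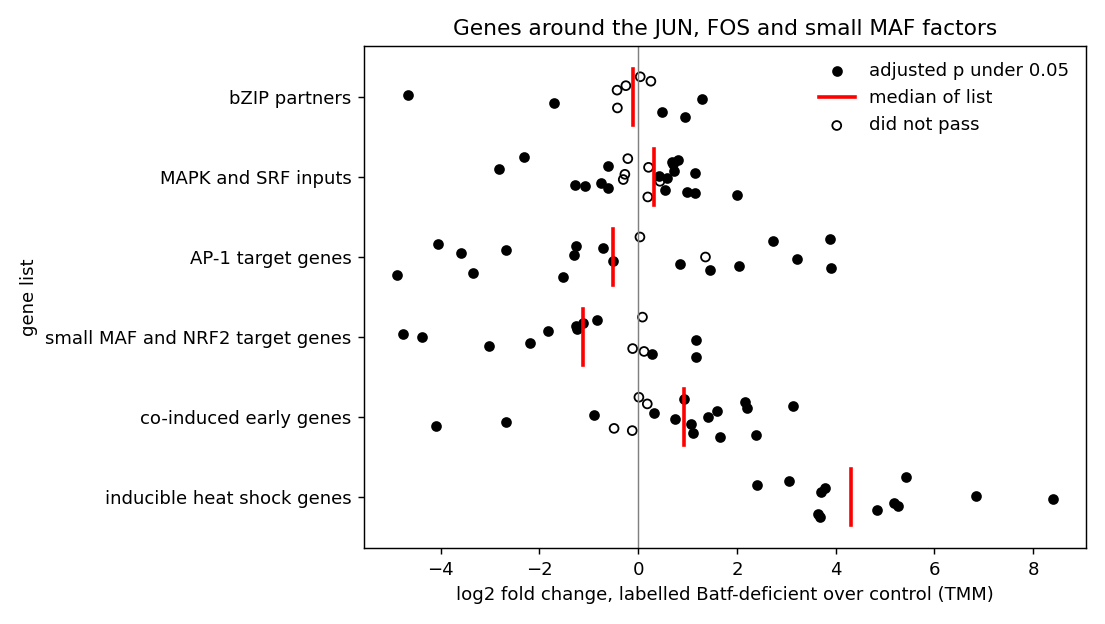
Log2 fold change with TMM factors, labelled Batf-deficient over labelled control, for the tested genes of 6 lists, each gene 1 point (filled where the edgeR adjusted p is under 0.05), with the list median in red. The medians run from -1.12 for the targets of NRF2 and small MAF pairs to 4.31 for the inducible heat shock genes, and the partner, kinase and target lists spread to both sides of 0.

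Profiles over the 6 libraries were compared by Euclidean distance of centred log2 CPM among 8567 tested genes whose mean log2 CPM was 3 or more. The nearest to Jun were the cytokine receptor gene Il2rb, the spermine oxidase gene Smox and Thy1, the gene of CD90, on which the cells were sorted (distances 0.19, 0.23 and 0.25). The nearest to Junb were Prkar1a, a regulatory subunit of protein kinase A, the transcription factor gene Ets1 and the sphingosine phosphate receptor gene S1pr4 (0.11, 0.12 and 0.15). For Fos they were Sqstm1, Stat3 and Clip1 (0.12, 0.13 and 0.15). With only 2 groups of 3 libraries, such likeness is mostly a like difference between the groups.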

How the data were processed

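The authors deposited raw counts per gene symbol for 6 libraries, as whole numbers. The submitters' processing notes name mm10; aligner, counter, annotation and strand setting: not given in the sources used here. No molecular identifiers are mentioned, so counts were taken as reads. Groups were taken from sample titles; the series design calls the replicates biological. Labelled Batf-deficient replicates 1 and 2 differed least (mean chi-square 2.44 per gene, against 15.6 to 26.0 in other pairs) and were kept as separate samples, with their average as an alternative.

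The test was that of edgeR 4.0.16 under R 4.3.3 (filterByExpr with a minimum count of 10, TMM, robust glmQLFit, glmQLFTest, two-sided, group as the only term, Benjamini-Hochberg over 15261 genes). Fold changes have the labelled control libraries as denominator. Lengths and positions are from GENCODE M21, promoters from RefSeq. At these depths 3 counts corresponded to 0.173 to 0.365 counts per 1000000 of the library total, before TMM scaling. This floor covers counting error only. The script was tested on simulated data in which few genes changed, as many up as down. Such data cannot show how the fit behaves where most genes differ. Members and lists were chosen with earlier results of these data known. Named genes were the members, Batf, and from each list the 3 passing genes with the lowest p in each direction, up to 3 partners that did not pass, and the 3 nearest profiles of Jun, Junb and Fos; those of Fosl2 and 1 further gene list are not reported here. Outside this rule, Egr1 and the overlapping genes Tmem184a and Prdx2 were named after their values were seen. Alternatives were library totals, size factors and test of DESeq2 1.42.0, no filter, each library left out, the average above, the replicate block, the pool total, other lengths and a gene panel added later.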

Additional observations from a re-analysis of the deposited data

How the results depend on the processing

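The counts of higher and lower members stayed within 1.5 times of the main counts under library totals, DESeq2's size factors, DESeq2's test, no filter, the averaged replicates and each library left out (6 higher, and 2 or 3 lower, without any 1 library); Mafk gave the third lower call without Batf-deficient replicate 3 (-0.29, edgeR adjusted p = 0.0483), and it passed with library totals (-0.59). All genes called without any 1 library ranged from 3603 to 4705 higher and 5149 to 5451 lower. With library totals 3048 genes were higher, and with panel scaling 314 higher and 13190 lower. Members called higher and lower were 2 and 8 with pool scaling and 1 and 8 with panel scaling. Directions reversed for Jund with library totals (-0.18), pool scaling (-1.70) and panel scaling (-2.18); with pool and panel scaling for Fos (-0.24 and -0.73), Fosb (-1.37 and -1.86), Fosl2 (-1.21 and -1.70) and Atf3 (-0.59 and -1.08); and with panel scaling for Junb (-0.086). These scalings divide by a quantity that itself differs between the groups. TMM scaling in turn rests on most genes being unchanged, while 64.4% of genes passed with it. The directions of Jun, Fosl1, Maff and Mafk were the same under every scaling tried, though Mafk did not pass with TMM. Those of the other members turned with the scaling. Differences in pool share, labelled Batf-deficient minus labelled control, kept their sign under the lengths and libraries tried: with raw counts they were 18.4 percentage points for JUN (13.0 for the Jun gene alone), -12.4 for FOS and -3.03 for small MAF (Fosl2 -4.40 in place of -1.11, Fosb -2.22 in place of -0.87 and Mafk -1.80 in place of -1.13), and with longest transcripts -2.54 for small MAF and 8.62 for the Jun gene. The replicate numbers did not pair the libraries, since deviations of same-numbered libraries correlated at 0.04, 0.08 and 0.12; the fit with the replicate block called 6 members higher and 2 lower, and 4603 genes higher and 5091 lower. Scaling on the earlier panel of lymphoid genes was not run, and the 12 genes used here were put together after seeing the data. Depth limits Fosl1 most, with 12 to 30 counts in the labelled Batf-deficient libraries.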
